A study of Mus musculus with 2 samples.

Results

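The genes of 6 structured noncoding RNAs, Rn7s1, Rn7s2, Rn7sk, Rmrp, Rpph1 and Terc, were described in total RNA of the mouse embryonic facial prominence. They were chosen by symbol, by a rule that did not use their levels, but with earlier results of these data known. They were 6 of the 43346 Ensembl genes in the gene tables. The samples were 2 pools of 1 group: replicate 1 held tissue of 69 embryos and replicate 2 tissue of 51 embryos. All embryos were healthy B6NCrl mice at embryonic day 10.5, with males and females mixed in each pool, and the labels name no treatment and no engineered allele. RNA above 200 nt, 10 ng per library, was extracted with the mirVana kit, spiked with control RNAs and sequenced, and the labels link a SMARTer Ultra Low kit manual. With 1 group there was no condition to compare, so levels, their spread over the pools and the sequences behind them are described. Because each pool mixes all cells of the tissue, more cells with an RNA and more RNA per cell cannot be told apart.

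These RNAs fold into scaffolds for protein complexes, and most are transcribed by RNA polymerase III. The 7SL RNA, made in mouse from Rn7s1 and Rn7s2, is the backbone of the signal recognition particle, which stops translation of secreted and membrane proteins until the ribosome reaches the endoplasmic reticulum. The 7SK RNA, from Rn7sk, holds the elongation kinase P-TEFb inactive with the HEXIM proteins. Rpph1 encodes the catalytic RNA of RNase P, which trims the 5′ end of tRNAs, and Rmrp the related RNA of RNase MRP, which cuts ribosomal RNA precursors. In people, changes in the human counterpart of Rmrp cause a disorder of cartilage and hair growth. Terc, transcribed by RNA polymerase II, carries the template that telomerase copies into telomeric repeats.

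Expected counts over Ensembl genes came to 40059176 in replicate 1 and 39531700 in replicate 2. The tissue label was met by its markers: all 6 facial mesenchyme genes were detected, from 27.4 TPM for Twist1 to 292 TPM for Msx1, where TPM is the level per base of effective length, scaled to the same total in each library. Markers of surface ectoderm (4 of 4), neurons (3 of 3) and endothelium (3 of 3) were also present, and embryonic globins stood between 2196 and 5398 TPM. Neither of the 2 liver markers nor either of the 2 heart markers reached 1 TPM in both pools. The liver marker Afp passed it in replicate 2 alone, at 1.09 TPM against 0.11 TPM in replicate 1, and Alb had 0 in both. The heart marker Myh6 was more than 2-fold apart, with 19.29 counts in replicate 1 and 104.54 in replicate 2. Nppa went the other way, at 0.17 TPM in replicate 1 and 0.09 TPM in replicate 2.

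The sequences of the annotated transcripts decide which reads can be assigned to a member. Rn7s1, at chr12:69159295-69159594 on the plus strand of GRCm38, and Rn7s2, at chr12:69361182-69361481 on the minus strand, are identical over all 300 of their 300 bases. The related gene Rn7s6 also carries bases 42 to 214 without a difference.

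The 7SK transcript, at chr9:78175303-78175633 on the minus strand, is shown in overlapping 5′ and 3′ stretches. In the first 100 bases, capitals mark the 3 copies of the letters GATC. Copies of this motif are known in human 7SK to take part in HEXIM1 binding, and which of the 3 do so in mouse was not tested. In the last 250 bases, capitals mark the 90 bases beyond the part shared with the gene Gm24447.
Rn7sk 5′ end: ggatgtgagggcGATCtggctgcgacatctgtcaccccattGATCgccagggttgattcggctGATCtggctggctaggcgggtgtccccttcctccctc
Rn7sk 3′ end: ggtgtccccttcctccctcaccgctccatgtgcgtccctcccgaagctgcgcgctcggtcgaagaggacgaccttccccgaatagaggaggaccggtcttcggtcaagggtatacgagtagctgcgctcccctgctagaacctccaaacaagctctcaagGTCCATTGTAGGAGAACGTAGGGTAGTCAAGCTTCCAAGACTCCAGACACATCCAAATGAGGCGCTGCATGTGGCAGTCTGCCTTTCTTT

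Rmrp, at chr4:43492788-43493058 on the minus strand, is shown whole because 124 of its bases, in capitals, are complementary to a transcript of the protein coding gene Ccdc107 on the other strand.
Rmrp: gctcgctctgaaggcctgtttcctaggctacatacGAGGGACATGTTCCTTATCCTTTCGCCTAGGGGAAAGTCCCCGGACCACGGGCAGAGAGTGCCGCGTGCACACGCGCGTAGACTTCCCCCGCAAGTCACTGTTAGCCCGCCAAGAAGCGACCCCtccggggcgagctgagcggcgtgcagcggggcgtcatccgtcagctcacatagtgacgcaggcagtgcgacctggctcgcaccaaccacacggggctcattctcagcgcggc

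Rpph1, at chr14:50807449-50807767 on the minus strand, carries a 21-base unit repeated in tandem from base 182, and capitals mark the second copy.
Rpph1 repeat: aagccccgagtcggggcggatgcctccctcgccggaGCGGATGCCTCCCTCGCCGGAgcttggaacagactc

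Terc, at chr3:96414437-96414859 on the minus strand, is shown at both ends. Capitals mark the template letters CTAACCC at the 5′ end and the ACA box, 3 bases from the 3′ end, to which box H/ACA proteins are anchored.
Terc 5′ end: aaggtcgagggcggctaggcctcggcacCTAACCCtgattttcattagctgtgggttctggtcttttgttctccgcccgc
Terc 3′ end: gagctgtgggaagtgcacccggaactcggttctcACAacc

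7SL was the most abundant of these RNAs. Rn7s1 stood at 4129.73 TPM in replicate 1 and 4129.30 TPM in replicate 2, and Rn7s2 at 4129.73 and 4129.49 TPM. Summed, the pair gave 8259.46 TPM in replicate 1 and 8258.79 TPM in replicate 2, a mean of 8259.1 ± 0.474 (SD, n = 2), above every other single gene. Counted one by one, Rn7s2 and Rn7s1 took ranks 10 and 11 among all genes.

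The levels of the 2 genes could not be separated. None of the 201 windows of 100 bases in either transcript belongs to 1 gene, because every window occurs in both. The deposited estimates gave 22000.2 expected counts to each gene in replicate 1, and 21873.4 to Rn7s1 and 21874.5 to Rn7s2 in replicate 2. The posterior SD of the Rn7s1 count was 10937 in replicate 1 and 8520 in replicate 2, equal to 45.1% and 35.7% of its posterior mean. Deposited TPM intervals, whose level is not given in the sources used here, ran for Rn7s1 from 897 to 7222 in replicate 1 and from 1763 to 7180 in replicate 2. Only the sum of the pair is therefore read as a level here. Of the 201 windows, 122 (60.7%) occur in the pair alone, 74 also in Rn7s6 and 5 also in Gm26461.

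Rn7sk, the 7SK gene, followed with 85.8 TPM in replicate 1 and 84.07 TPM in replicate 2, a mean of 84.9 ± 1.22 (SD, n = 2), from 527.55 and 514 expected counts. Its deposited intervals, 76.0 to 90.6 TPM in replicate 1 and 74.3 to 88.7 TPM in replicate 2, overlapped almost wholly. Rpph1, the RNase P RNA, had 43.73 TPM in replicate 1 and 40.19 TPM in replicate 2, averaging 42.0 ± 2.50 (SD, n = 2), from 255 and 233 expected counts. These 2 RNAs lay in the range of well expressed messenger RNAs, since the 12494 detected protein coding genes had a median of 20.1 TPM.

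Rmrp and Terc were near the lower limit of measurement. Rmrp had 1.41 TPM in replicate 1 and 1.92 TPM in replicate 2, averaging 1.67 ± 0.361 (SD, n = 2), from only 6.42 and 8.69 expected counts. Terc had 0.82 TPM in replicate 1 and 0.70 TPM in replicate 2, averaging 0.76 ± 0.0849 (SD, n = 2), from 7 and 6 expected counts. The deposited intervals for Rmrp were 0.537 to 2.79 TPM in replicate 1 and 0.870 to 3.44 TPM in replicate 2, and those for Terc 0.339 to 1.55 TPM and 0.272 to 1.41 TPM. For both RNAs and in both pools they reached across the detection threshold of 1 TPM.

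**Figure D1:**
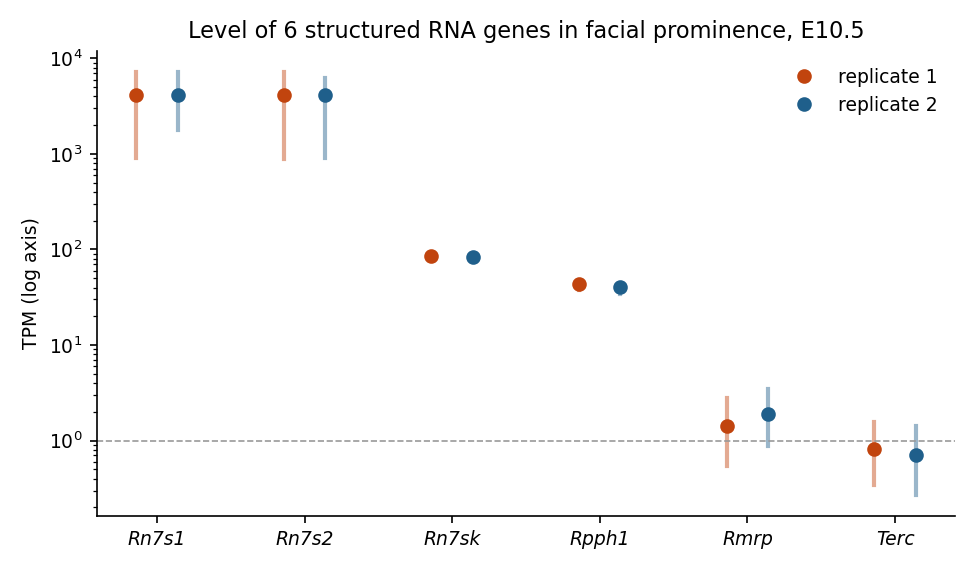
TPM on a log axis for the 6 RNA genes, with replicate 1 in orange and replicate 2 in blue; vertical lines are the deposited intervals of the estimates and the dashed line marks 1 TPM. The wide lines of Rn7s1 and Rn7s2 start near 900 TPM in 3 of 4 cases, while Rmrp and Terc lie around 1 TPM.

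At 1 TPM or more in both pools, 5 of the 6 members were detected, all but Terc. The count was 6 at a threshold of 0.5 TPM and 4 at 5 TPM, so the calls for Terc and Rmrp turned with the threshold. Of the 438 genes of small structured RNA classes with at least 100 windows, members included, 25 (5.71%) were detected, and of the 21474 protein coding genes 12494 (58.2%) were. The members took 0.112% of the gene counts in replicate 1 and 0.113% in replicate 2. Within those counts, 7SL held 98.2% in replicate 1 and 98.3% in replicate 2.

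The order of levels was 7SL, Rn7sk, Rpph1, Rmrp and Terc in both pools. It is an order of measured levels, because recovery of each RNA by the library preparation was not tested. Each gap was compared with the replicate spread of the 200 genes nearest in level, on the log2(TPM + 0.1) scale, as a 95% interval. No other gene reached the 7SL sum, so the 200 genes used for 7SL all lay below it in level. 7SL exceeded Rn7sk 97.1-fold (interval 88.1 to 107), and Rn7sk exceeded Rpph1 2.02-fold (1.77 to 2.31). Rpph1 exceeded Rmrp 24.1-fold, with an interval of 10.6 to 54.8. With the spread of genes 200 to 500 bases long instead, these intervals were wider but still above 0 on the log2 scale. For 7SL over Rn7sk the log2 interval was 6.17 to 7.03 in place of 6.46 to 6.74. For Rn7sk over Rpph1 it was 0.34 to 1.69 in place of 0.82 to 1.21, and for Rpph1 over Rmrp 3.12 to 6.06 in place of 3.40 to 5.78. Rmrp over Terc, at 2.04-fold, had an interval of 0.694 to 5.97, so these neighbours did not differ beyond their spread. With posterior mean TPM the same gap was 1.01 on the log2 scale with an interval of 0.40 to 1.62, and this call therefore depends on the estimate used. No p is given for any gap, since the smallest p of an exact two-sided permutation test with 2 values a side is 0.333.

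Between the pools no member was 2-fold apart. The log2 ratio of replicate 1 over replicate 2, from expected counts scaled by TMM factors, was -0.03 for 7SL with a 95% counting interval of -0.05 to -0.01. For Rn7sk it was -0.0012 (interval -0.178 to 0.178), and for Rpph1 0.09 (interval -0.171 to 0.354), so both intervals included 0. Scaled by spike-in totals instead, the ratio was 0.19 for 7SL, 0.21 for Rn7sk and 0.31 for Rpph1. The ratio thus turned positive for 7SL and Rn7sk, and no direction is given for any of these RNAs. For Rn7sk it also turned positive with DESeq2 size factors (0.0065) and with library totals (0.018). Rmrp, at -0.37 with an interval of -2.40 to 1.03, and Terc, at 0.14 with an interval of -1.61 to 2.03, rested on few reads, and a difference within those intervals was not detectable at this depth. With spike-in totals these ratios were -0.20 for Rmrp and 0.31 for Terc. Of the 6 members, 4 reached a mean count of 50. Among all 14118 genes at that count, 174 (1.23%) were 2-fold apart, and the median absolute log2 ratio was 0.094.

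**Figure D2:**
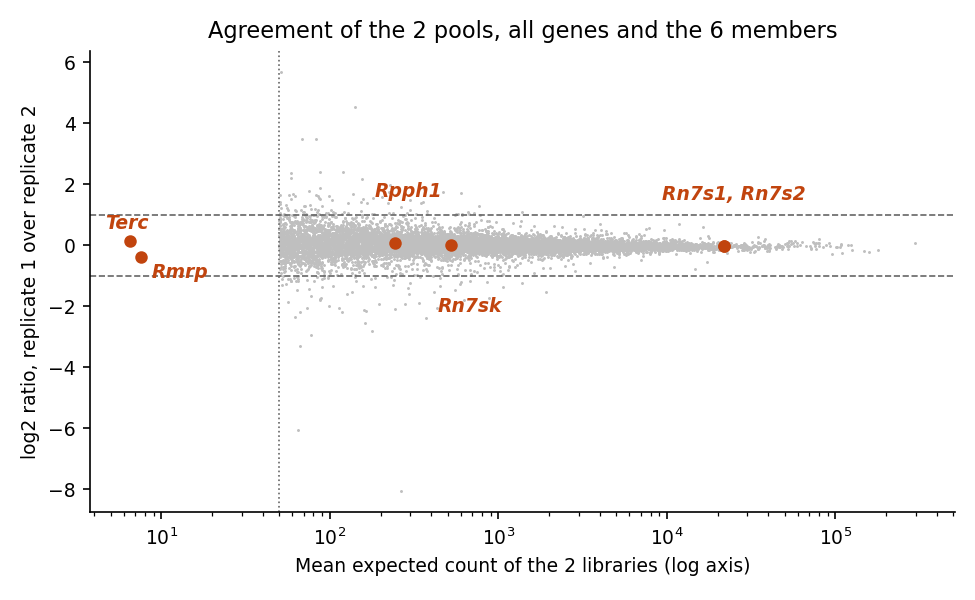
Log2 ratio of replicate 1 over replicate 2 against mean expected count on a log axis; grey points are the 14118 genes to the right of a mean count of 50 (dotted line), orange points the members, and dashed lines mark a 2-fold difference. All 6 members lie between the dashed lines, with Rmrp and Terc left of the dotted line.

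Copies elsewhere in the annotation were given few of the expected counts of the 7SL, 7SK and Rpph1 families. For Terc, the gene and its related entries all had few counts. Annotated transcripts with at least 80% identity over at least 150 bases numbered 11 for 7SL, and together these had 23.54 counts in replicate 1 and 12.13 in replicate 2, beside 44000.5 and 43747.9 for the pair. At 90% identity or more, a limit chosen after seeing the data, the copies numbered 6 for 7SL, 11 for 7SK and 0 for Terc. The best covered copy in replicate 1 was Rn7s6, with 16.51 counts against 4.03 for Gm26461. In replicate 2 it was Gm26461, with 8.05 counts against 2.08 for Rn7s6. Rn7s6 differs from 7SL at 3 of the 214 compared bases. Reads of Rn7s6 and of 7SL within the span they share cannot be told apart.

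For 7SK, the 38 annotated copies at 80% identity held 12.45 expected counts in replicate 1 and 7 in replicate 2. Rn7sk was thus given 97.7% and 98.7% of the expected counts of its family. Of the 232 windows of Rn7sk, 90 (38.8%) are found in no other quantified transcript, and these are the windows that reach into the capital letters of its 3′ end. Gm24447 shares 142 windows and Gm26315 shares 136, and both were given 0 expected counts in each pool. Their posterior mean counts were 3.23 in replicate 1 and 2.48 in replicate 2 for Gm24447, and 2.60 and 3.18 for Gm26315. Reads within the shared windows cannot be told apart, so the 0 does not show that these copies are silent.

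Rpph1 had all 220 of its windows to itself among the quantified transcripts. Its relatives Rprl1, Rprl2 and Rprl3 had 0 counts in both pools, and none holds the 21-base repeat unit that Rpph1 carries 2 times. A later annotation release lists a transcript of the protein coding gene Ccnb1ip1 that shares 134 of these windows; it was not quantified, and Ccnb1ip1 itself had 0 counts.

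Rmrp had 147 of 172 windows (85.5%) of its own, and the other 25 lie in the span complementary to the Ccdc107 transcript. That transcript had 10.0 counts in replicate 1 and 6.16 in replicate 2, of the same order as the 6.42 and 8.69 counts of Rmrp. No source used here states whether read strand entered the counting. Both genes had fractional expected counts, with 711.58 in replicate 1 and 719.31 in replicate 2 for Ccdc107 as a whole. The posterior SD of the Rmrp count was 0.67 in replicate 1 and 0.53 in replicate 2. Some reads counted for Rmrp were thus divided with another transcript, and that of Ccdc107 was the only other quantified one found to share its windows. Reads in this span may belong to either gene.

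Terc had all 324 of its windows to itself. Its annotated transcript is 423 bases long, 26 of them upstream of the RefSeq start, and the template letters begin at base 29, which is base 3 of the RefSeq transcript. The 2 related gene entries, both named 1600017P15Rik and 82.6% identical over 407 aligned bases, had 9 counts in replicate 1 and 2 in replicate 2, beside 7 and 6 for Terc. Per effective length, 1 entry had 0.26 TPM in replicate 1 and 0 in replicate 2, and the other 0.33 and 0.10 TPM. Each lay below Terc, at 0.82 and 0.70 TPM. Whether their reads fell within the aligned bases was not tested.

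**Figure D3:**
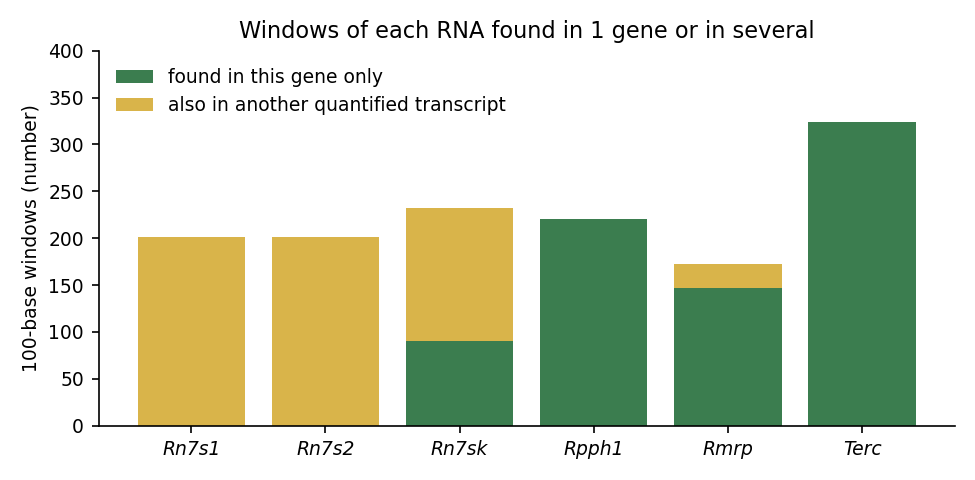
Number of 100-base windows per transcript, split into windows found in that gene alone (green) and windows also found in another quantified transcript (yellow). Rn7s1 and Rn7s2 have 0 windows of their own, Rn7sk has 90 of 232 and Rmrp 147 of 172, while Rpph1 and Terc have 220 and 324, all their own.

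Genes next to the members ranged from 0 TPM to the level of a ribosomal protein gene. Rn7s1 starts 108 bases from the ribosomal protein gene Rps29, which lies on the other strand and averaged 1184 ± 10.7 TPM (SD, n = 2). The next gene to the other side, Lrr1, averaged 16.8 ± 0.410 TPM. Each 7SL gene is overlapped by 2 annotated microRNA genes, none of which was quantified. Rn7s2 lies 201587 bases from Rn7s1 and 4016 bases from Nemf, at 35.7 ± 1.44 TPM. Rn7sk lies 280 bases from the lincRNA C920006O11Rik, at 4.08 ± 0.622 TPM, and 3195 bases from the kinase gene Ick, at 32.9 ± 1.71 TPM. Rpph1 lies 73 bases from Parp2, a DNA repair gene on the other strand with 46.20 TPM in replicate 1 and 46.55 TPM in replicate 2. Ccdc107, which overlaps Rmrp, had 38.15 TPM in replicate 1 and 38.91 TPM in replicate 2. A second entry named Rmrp, listed in the later annotation at the same place, was not quantified. To its sides lie Arhgef39, at 38.6 ± 2.73 TPM, and Sit1, at 0 TPM in replicate 1 and 0.11 TPM in replicate 2. Near Terc, the pseudogene Gm21960 had 0.53 and 0.32 TPM and the snRNA gene Gm24136 was listed at 0.

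Genes of the protein partners were detected throughout, at 1 TPM or more in both pools for every quantified member of the 5 lists below, against 58.2% of protein coding genes. No partner was 2-fold apart between the pools. Levels of RNA and messenger RNA are compared per effective length; how completely structured RNAs were recovered by the library preparation was not tested.

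For 7SL, 9 of 10 listed genes of the signal recognition particle and its receptor were quantified, with a median of 75.1 TPM. Srp14 and Srp9, whose products bind the Alu domain of 7SL and slow elongation, averaged 203 ± 8.12 and 136 ± 5.25 TPM (SD, n = 2). Srp19, needed for particle assembly, averaged 197 ± 3.59 TPM, and Srp68 87.8 ± 0.672 TPM. The lowest were Srp72, at 66.7 ± 1.53 TPM, and the receptor gene Srprb, at 54.8 ± 2.46 TPM. The level of 7SL was 40.7 times that of Srp14 and 124 times that of Srp72.

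For Rn7sk, the 9 genes of its particle and of P-TEFb had a median of 54.8 TPM. Srsf2, a splicing factor found with 7SK, averaged 753 ± 1.46 TPM, and the kinase gene Cdk9 112 ± 2.04 TPM. The cyclin gene Ccnt2 averaged 83.6 ± 2.77 TPM. The inhibitor genes were lowest, Hexim2 at 8.08 ± 1.43 TPM and Hexim1 at 2.40 TPM in replicate 1 and 2.39 TPM in replicate 2. The Rn7sk level was 35.5 times that of Hexim1, 1.55 times that of Larp7, whose protein protects the 3′ end of 7SK, and 0.761 times that of Cdk9.

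RNase P and RNase MRP share most of their proteins, and the 11 listed genes had a median of 48.4 TPM. Pop4 averaged 112 ± 6.90 TPM, Pop5 99.3 ± 4.04, Rpp30 82.7 ± 1.29 and Rpp25l 76.9 ± 0.962 TPM. Rpp38 stood at 16.6 ± 0.778 TPM and Rpp25, a paralog of Rpp25l, at 1.38 ± 0.0566 TPM. The level of Rpph1 was 2.42 times that of Pop1 and 0.374 times that of Pop4, whereas the level of Rmrp was 0.0961 times that of Pop1 and 0.0149 times that of Pop4.

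For Terc, the 14 listed telomerase and processing genes had a median of 61.6 TPM. Nhp2, Dkc1 and Nop10, whose products bind the H/ACA end of Terc, averaged 224 ± 7.99, 203 ± 5.71 and 192 ± 8.99 TPM (SD, n = 2). Ruvbl1, an assembly helicase, averaged 186 ± 5.62 TPM. Tert, the reverse transcriptase, had 6.79 TPM in replicate 1 and 6.55 TPM in replicate 2, and Naf1, an early assembly factor, averaged 3.08 ± 0.361 TPM. The Terc level was 0.114 times that of Tert and 0.00374 times that of Dkc1.

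RNA polymerase III and its factors, which serve all members but Terc, were represented by 25 genes with a median of 30.7 TPM. Ssb, encoding the La protein that binds the 3′ ends of new transcripts, averaged 326 ± 20.3 TPM, and Maf1, the repressor of this polymerase, 153 ± 11.0 TPM. The subunits shared with RNA polymerase I, Polr1d and Polr1c, averaged 116 ± 2.89 and 108 ± 2.61 TPM. At the low end stood Brf2, a factor of the promoter type used by 7SK, RNase P and RNase MRP RNA genes, at 15.8 ± 0.665 TPM, and Polr3a, the largest subunit, at 11.8 ± 0.424 TPM.

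**Figure D4:**
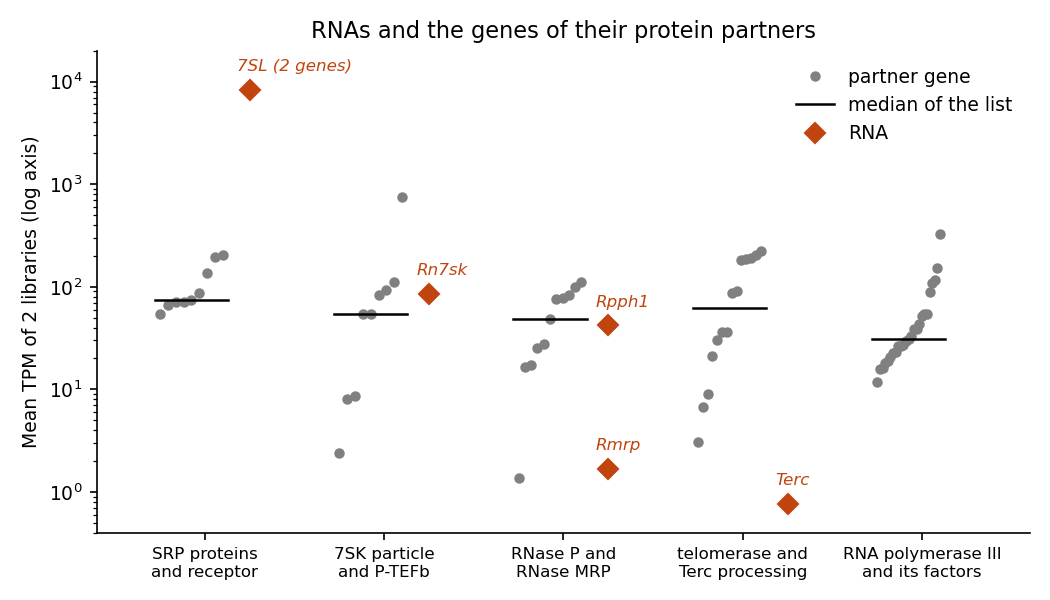
Mean TPM of both pools on a log axis for partner genes (grey points; black bar, median of the list) and for the RNAs (orange diamonds). 7SL, at 8259 TPM, lies above all SRP genes, Rn7sk and Rpph1 lie among their partners, and Terc, at 0.76 TPM, lies below all 14 of its partners.

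Few genes in a list of other structured RNAs were detected, and the levels of some of these exceeded those of Rmrp and Terc. Of 27 listed genes, which include the microRNA host gene Mir17hg, 25 were quantified, 4 were detected and 11 had 0 counts in both pools. Snora73b had 12.20 TPM in replicate 1 and 9.37 TPM in replicate 2, Mir17hg 9.85 and 8.77 TPM, Rnu2-10 5.93 and 2.86 TPM, and Rnu1b6 1.74 and 3.11 TPM. Several of these transcripts are hardly longer than 1 window, with an effective length of 3 bases for Rny3, 13 for Rny1 and 8 for Rnu6. Members held 98.96% of the counts of the class misc_RNA in replicate 1 and 99.12% in replicate 2. Nearly all of this was 7SL, with 44000.46 of 44535.01 member counts in replicate 1 and 43747.87 of 44267.87 in replicate 2. Rn7sk had 527.55 and 514 counts and Terc 7 and 6, beside 465.93 and 394.26 for all other genes of the class. In the ribozyme class of 22 genes, Rpph1 and Rmrp held 100% of the counts in replicate 1 and 99.6% in replicate 2. Most of these were from Rpph1, with 255 and 233 counts.

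By level over both libraries, the detected protein coding genes nearest to Rn7sk were 0610037L13Rik, at 85.56 and 84.25 TPM, and Gtf2b, at 85.70 and 84.66 TPM. Nearest to Rpph1 were Srrd, at 43.51 and 40.24 TPM, and Tcp11l1, at 43.94 and 40.46 TPM. For the values given to Rn7s1 and Rn7s2 they were Ftl1, with a mean of 4715 TPM, and mt-Atp6, with a mean of 4858 TPM. These values divide the sum of an inseparable pair, so the match is not one of measured levels. Disc1 and Gm12355 were nearest to Rmrp, at means of 1.65 and 1.69 TPM, and Exoc3l2 and Fam83b to Terc, each at a mean of 1.01 TPM. Terc itself was below the 1 TPM required of detected genes, so its nearest genes lie at that limit. With n = 2 libraries, this likeness is one of level alone.

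The members share a high GC content, from 58.0% in Rn7sk to 67.1% in Rpph1 and Terc, while their predicted folding energies were spread widely. The minimum free energy per 100 bases, computed from sequence, was -47.8 kcal/mol for Terc, -47.0 for Rpph1, -44.3 for Rn7s1 and Rn7s2, -39.2 for Rmrp and -33.8 for Rn7sk. Across 1924 protein coding transcripts of 271 to 423 bases, it had a median of -32.7 kcal/mol, with the middle 90% between -43.1 and -22.9, at a median GC content of 53.9%. Of those transcripts, 99.01% had a weaker fold than Terc, 98.6% than Rpph1, 96.3% than 7SL, 85.7% than Rmrp and 58.5% than Rn7sk. Rmrp and Rn7sk thus lay within the middle 90%, and Terc, Rpph1 and 7SL below it.

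**Figure D5:**
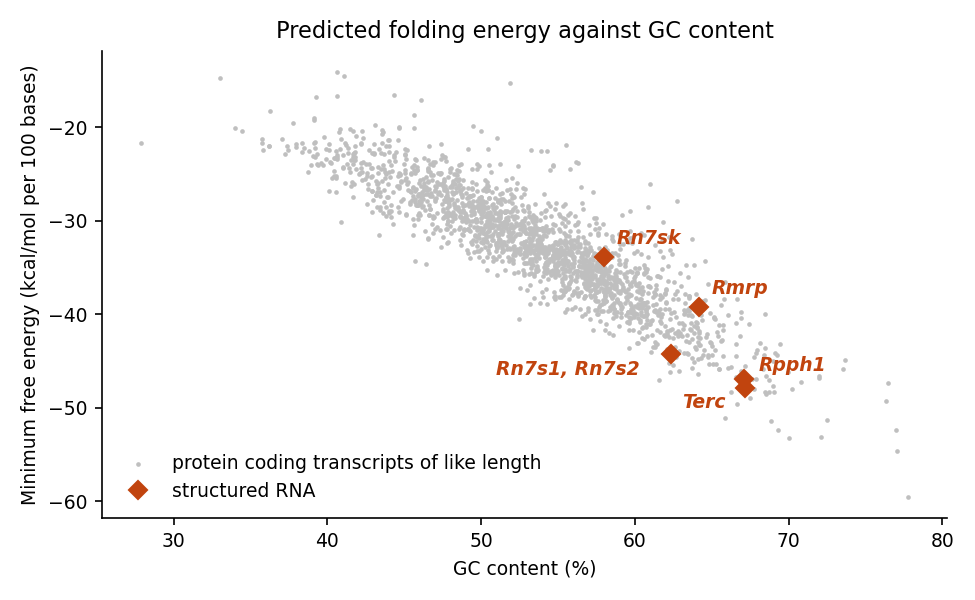
Minimum free energy in kcal/mol per 100 bases against GC content in percent, for the members (orange diamonds) and 1924 protein coding transcripts of 271 to 423 bases (grey). Energy falls with GC content among the grey points, and Rn7sk and Rmrp lie within their cloud.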

How the data were processed

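Total RNA-seq of 2 pools was analysed as 1 group, with no contrast. Expected counts per gene and transcript, with posterior means, SDs and intervals, were deposited as estimated by the authors, and TPM values as the authors scaled them over all features, spike-ins included, were deposited too. Isoform shares were deposited as a percent and not used. Per the accompanying notes the assembly was mm10 and the annotation GENCODE M4; aligner and quantifier are not given in the sources used here. Symbols, coordinates and sequences came from GENCODE M21 on GRCm38 by gene identifier, and RefSeq gave alternative lengths.

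Counts were rounded and scaled by TMM (edgeR 4.0.16; DESeq2 1.42.0 as alternative), with a prior count of 2 for ratios, and checked on simulated data. Copies were found with BLAST 2.17.0, and folds with ViennaRNA 2.7.2. Windows of 100 bases match the deposited effective length, which is length minus 99. Intervals cover counting error only where so named. Partner genes named are the up to 4 highest and 2 lowest of each list, plus others compared with an RNA by ratio; 1 partner gene and the 7SL sequence are not reported here. For each RNA, overlapping or adjacent genes, transcripts sharing windows and the 2 nearest protein coding genes by level are given. Members and lists were chosen with earlier results of these data known. Nothing in the labels says whether embryos of the 2 pools came from separate litters.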

Additional observations from a re-analysis of the deposited data

How the results depend on the processing

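Of the values recomputed under alternatives, 109 stayed within the limit set for their kind (the replicate spread, the same side of a threshold, or 1.5 times for a count), 28 moved beyond it and 1 newly passed a threshold. For the 7SL level this limit was the SD of 0.474 TPM, so even small shifts of that level counted as moved. Posterior mean TPM gave 8081 for 7SL, 82.3 for Rn7sk and 0.855 for Terc. Dividing by full transcript length gave 6164 for 7SL, 66.3 for Rn7sk, 32.2 for Rpph1, 1.18 for Rmrp and 0.648 for Terc. Rescaling over Ensembl genes gave 9019.9 for 7SL, 92.8 for Rn7sk and 45.8 for Rpph1; over features with at least 100 windows, 7SL was 8332. RefSeq lengths, an alternative chosen after seeing the data, gave 8300.4 for 7SL. Rn7s1 alone gave 4129.5 and Rn7s2 alone 4129.6. The log2 ratio of replicate 1 over replicate 2 became -0.011 for 7SL with library totals, and 0.19 for 7SL and 0.21 for Rn7sk with spike-in totals; spike-in totals turned the direction for 7SL, and for Rn7sk they, DESeq2 size factors (0.0065) and library totals (0.018) did. Spike-in totals also gave 0.31 for Rpph1 and for Terc and -0.20 for Rmrp. Genes 2-fold apart numbered 2387 with no filter on low counts, and 655 were at least 1.5-fold apart. With posterior means, Rmrp over Terc was 1.01 on the log2 scale, with an interval of 0.40 to 1.62 that no longer reached 0. Members detected numbered 6 at 0.5 TPM and 4 at 5 TPM. Copies at 90% identity, also chosen after seeing the data, numbered 11 for 7SK, 6 for 7SL and 0 for Terc. Other structured RNAs detected numbered 9 at 0.5 TPM, 2 at 5 TPM, 14 with posterior means, and 6 to 7 when either replicate was left out. The members' share over all features was 0.108%. The cause of these shifts was not tested. Depth limits Rmrp and Terc, with under 10 counts each per library. No paired analysis was possible because there was 1 group.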
